A study of Mus musculus with 58 samples.

Results

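Bulk RNA sequencing was used to compare injured male mice that received the p38 MAPK inhibitor SB239063 (SB) with injured male mice that received its saline vehicle. The comparison takes in 16 of the 58 libraries, chosen by their sample labels alone: 8 SB and 8 vehicle libraries of somatosensory cortex from C57BL/6J males aged 2 to 4 months. Both groups had 5 once-daily closed head injuries (5xCHI), each followed after 30 min by an intraperitoneal injection of SB at 20 mg/kg or of vehicle, so neither group is uninjured. Cortex was taken at the study's chronic stage, roughly 1 month past the final injury; days 18 and 34 are both mentioned, with no animal assigned to either. The labels place the males in cohorts M1, M2, M3 and M4, each with 2 SB and 2 vehicle libraries. The main fits, cohort differences and permutation tests below were made within cohorts. The lowest, median and highest levels, and the overlap of ranges, pool the 4 cohorts. Uninjured males (5 sham vehicle libraries) and injured females (11 SB and 12 vehicle libraries) are set beside the result where they bear on it.

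The p38 kinases are stress-activated members of the MAP kinase family. Upstream kinases switch them on by phosphorylation, and they in turn act on further kinases and on transcription factors. In microglia and astrocytes the pathway drives the production of inflammatory cytokines, and in neurons it takes part in synaptic plasticity. SB239063 competes with ATP in the alpha and beta isoforms, which are encoded by Mapk14 and Mapk11. Transcript levels do not show kinase activity, and phosphorylation was not analysed here.

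Counts were given for 9636 genes, the smallest count in the 16 libraries being 136. Library totals over these genes were 33910112 to 43330283 in SB males and 28344848 to 45049672 in vehicle males. Cohort accounted for 80.2% of principal component 1 (26.2% of the variance) and treatment for 1.59% of it. The third component, 13.1% of the variance, had the largest share that followed the treatment among the first 4, 15.4%, and carried myelin genes at one end. SB replicates 6 (cohort M4) and 8 (cohort M3) had the lowest median correlation with the other libraries, 0.980 and 0.983. SB replicate 6 also stood apart in Enpp2, the autotaxin gene of choroid plexus and oligodendrocytes (named after its values were seen), at 2360 CPM (read counts relative to TMM-scaled library size). The other 7 SB libraries had 219 to 351 CPM and the vehicle libraries 274 to 387 CPM. Of 18 choroid plexus and ependyma genes 2 were measured, Enpp2 among them, and their summed level was 245, 324 and 2380 CPM (lowest, median and highest) with SB and 294, 336 and 403 CPM with vehicle. SB replicate 1 (cohort M2) stood apart in striatal genes. Of 7 red blood cell genes 0 were measured, and of 20 genes of peripheral leukocytes and border macrophages 1 was. Markers that define neurons, astrocytes, microglia, oligodendrocytes and endothelial cells were among the measured genes. Those of choroid plexus (Ttr, Kl, Folr1), fibroblasts (Col1a1, Dcn), blood (Hbb-bs, Hba-a1) and striatal neurons (Drd1, Drd2) were not analysed here. As every measured gene had at least 136 counts in each of the 16 libraries, presence in all of them was set beforehand. Genes high in only some libraries could have been left out, so an unmeasured gene does not show that a tissue was absent.

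No gene differed between SB and vehicle males past the threshold. By edgeR's quasi-likelihood test, 0 of 9636 genes had an adjusted p under 0.05 in either direction (0% called), and the smallest adjusted p was 0.999. At an unadjusted p under 0.05 there were 200 genes higher with SB (2.08% of those tested) and 180 lower (1.87%), or 3.94% in all. DESeq2 and limma voom with quality weights also called 0 genes, with 418 and 677 at an unadjusted p under 0.05. An even spread of p would give 481.8 such genes, more than were found by edgeR or DESeq2 and fewer than by voom. The 95% confidence intervals of 98.63% of genes excluded a difference above 1.5-fold. The median standard error (SE) of a log2 fold change was 0.062, and 7 genes had a log2 fold change beyond 0.5 in either direction. The ranges of the 2 groups overlapped for every gene (0 higher and 0 lower without overlap, 0% of genes each). The mean was higher with SB in all 4 cohorts for 405 genes (4.2%) and lower in all 4 for 395 (4.1%). All genes and lists below are therefore given by their values, and none passed the test over all genes.

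Among the genes with the smallest p on the higher side was Zic1, a zinc finger transcription factor gene of the thalamus and of dorsal neural tissue. It had 12.2, 13.9 and 15.6 CPM (lowest, median and highest) in SB males, against 7.15, 9.65 and 14.8 CPM in vehicle males. All 8 SB libraries lay above the vehicle median, and the highest vehicle library, replicate 6 of cohort M1, lay inside the SB range. The log2 fold change was 0.48 ± 0.11 (SE), with an unadjusted p of 0.000282 and an adjusted p of 0.999 by edgeR. The within-cohort differences were 0.14 in M1, 0.59 in M2, 0.59 in M3 and 0.65 in M4. Sham vehicle males had 7.24, 11.7 and 15.1 CPM, a range that spans nearly both injured groups.

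Kcnh4, which encodes a voltage-gated potassium channel, had 26.2, 29.6 and 43.2 CPM in SB males, against 21.5, 22.6 and 29.8 CPM in vehicle males. The 2 vehicle libraries of cohort M1 held 29.3 and 29.8 CPM and overlapped the SB range, and the other 6 held 21.5 to 26.1 CPM, below every SB library. Its log2 fold change was 0.37 ± 0.086 (SE). Kcnh4 was the only gene called in any of the alternatives run, at 0.44 (adjusted p = 0.0194 by edgeR) without SB replicate 4. That library, of cohort M1, was the lowest SB library for this gene. Leaving it out kept the highest, SB replicate 3 at 43.2 CPM, as the only SB library of cohort M1. Fstl4, a gene for a secreted follistatin-like protein, had 29.4, 40.3 and 47.4 CPM with SB, against 24.8, 34.2 and 35.9 CPM with vehicle (0.28 ± 0.066). Its cohort differences were 0.075 in M1, 0.39 in M2, 0.47 in M3 and 0.18 in M4. Plk5, a polo-like kinase gene expressed in brain, had 10.8, 17.0 and 26.1 CPM with SB and 8.51, 11.8 and 17.6 CPM with vehicle (0.47 ± 0.12).

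The remaining genes of this group were also higher in all 4 cohorts. Several encode parts of the matrix or of the cell's edge: the fibronectin gene Fn1 (0.32 ± 0.088), the collagen VI gene Col6a2 (0.32 ± 0.090), the caveola coat gene Cavin1 (0.31 ± 0.088) and the adhesion regulator gene Kank2 (0.24 ± 0.063). Fn1 had 45.5, 77.8 and 85.7 CPM in SB males and 45.0, 57.0 and 73.2 CPM in vehicle males. Its 2 SB libraries of cohort M4 were the lowest of the SB group. The others were Slc16a6, of the monocarboxylate transporter family (0.39 ± 0.11), the inositol synthesis gene Isyna1 (0.29 ± 0.078), Ankrd35 (0.23 ± 0.063) and the lysosomal trafficking regulator gene Lyst (0.16 ± 0.048). For Ankrd35, 7 of 8 SB libraries lay above the highest vehicle library.

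On the lower side, Hsd11b1, the enzyme gene that regenerates active glucocorticoid, had 15.8, 17.6 and 21.1 CPM in SB males, against 15.1, 21.8 and 28.1 CPM in vehicle males. The log2 fold change was -0.31 ± 0.079 (SE), with an unadjusted p of 0.00108 by edgeR. The cohort differences were 0.010 in M1, -0.39 in M2, -0.39 in M3 and -0.42 in M4. Rnd3, a small GTPase gene, had 13.3, 15.6 and 17.0 CPM with SB and 13.2, 19.3 and 23.0 CPM with vehicle (-0.31 ± 0.083). Cebpg, a C/EBP transcription factor gene, had 41.7, 45.3 and 48.0 CPM with SB and 44.3, 52.7 and 54.3 CPM with vehicle (-0.17 ± 0.048). Dennd11 had 124, 136 and 143 CPM with SB and 138, 149 and 156 CPM with vehicle (-0.14 ± 0.040). Both were lower in all 4 cohorts, and every SB library of each lay below the vehicle mean of its cohort. For Dennd11, 5 of 8 SB libraries lay below the lowest vehicle library.

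Others of small p on this side had log2 fold changes between -0.36 and -0.14. They were Tiparp, an ADP-ribosyltransferase gene (-0.36 ± 0.11), Zfp874b (-0.24 ± 0.075), Gpr17, a receptor gene of committed oligodendrocyte precursors (-0.23 ± 0.076), and the prohormone convertase gene Pcsk1 (-0.20 ± 0.068). Nrip3 stood at -0.20 ± 0.067, the G protein subunit gene Gng12 at -0.19 ± 0.061, and Ppp1r3c, which targets a phosphatase to glycogen in astrocytes, at -0.16 ± 0.053. Urm1, a ubiquitin-like modifier of tRNA, stood at -0.14 ± 0.047, and 6 of 8 SB libraries had less of it than any vehicle library.

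**Figure D1:**
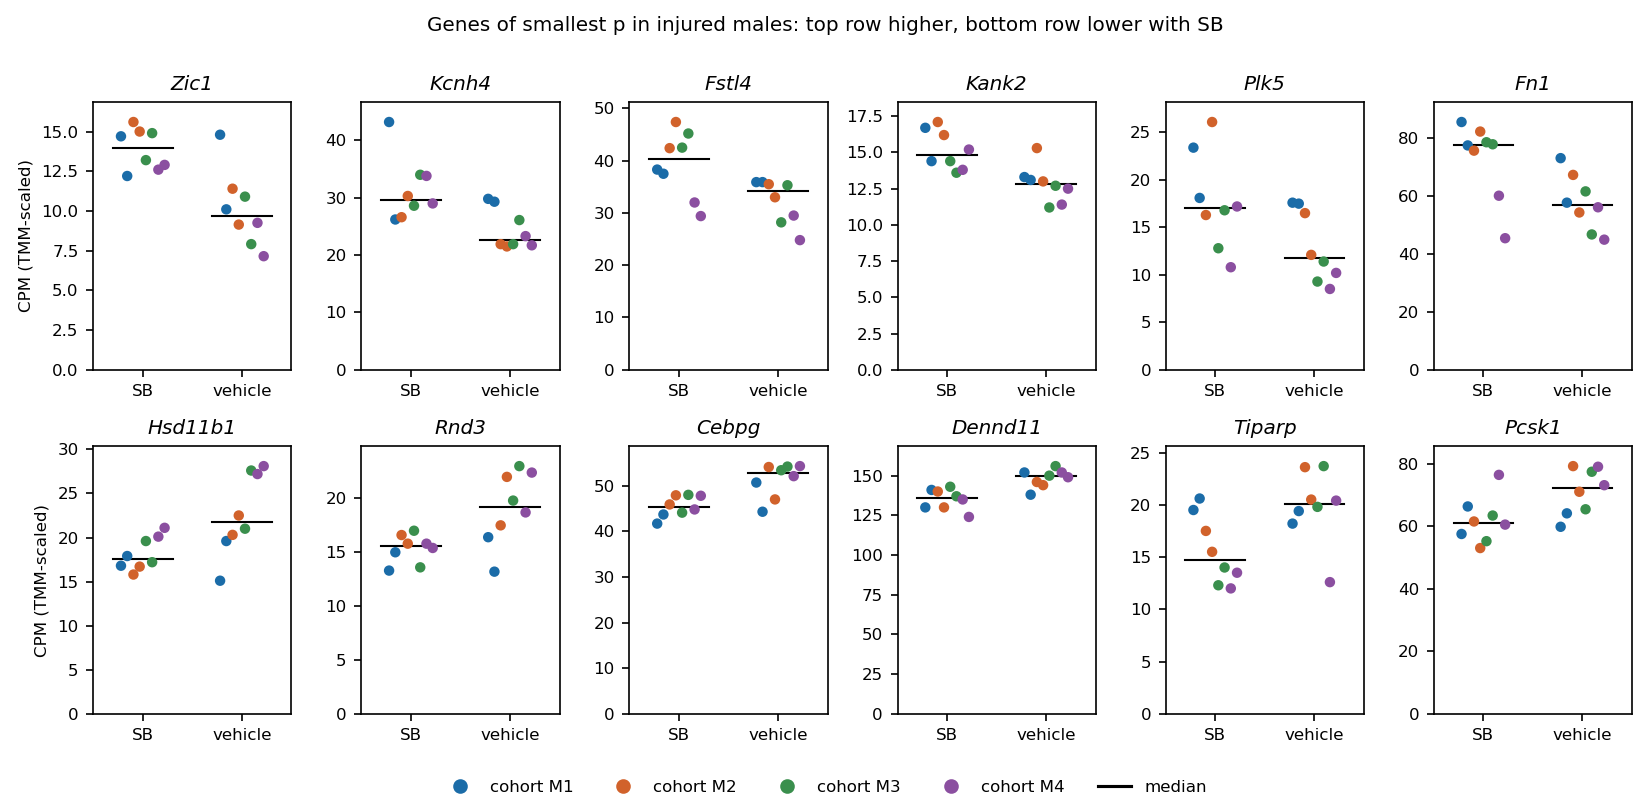
TMM-scaled CPM of 12 genes of smallest p in each injured male library, SB left and vehicle right; points are libraries coloured by cohort and bars are medians. Zic1 lies at 12.2 to 15.6 CPM with SB and 7.15 to 14.8 CPM with vehicle, and the groups overlap in all 12 genes.

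The targets of the drug were measured as transcripts. Mapk14 had 100.5, 112 and 120 CPM in SB males, against 104, 109 and 116 CPM in vehicle males (log2 fold change 0.038 ± 0.045, SE). Mapk11 had 56.0, 69.9 and 88.2 CPM with SB and 61.9, 66.7 and 75.7 CPM with vehicle (0.080 ± 0.073). An exact two-sided permutation test within cohorts gave p = 0.344 for Mapk14 and p = 0.36 for Mapk11, with 0.00154 the smallest p it allows. The Mapk11 difference came mostly from cohort M4, at 0.36 there, and was -0.014 without that cohort. The 95% interval of the log2 fold change ran from -0.057 to 0.13 for Mapk14 and from -0.073 to 0.23 for Mapk11. Mapkapk2, the kinase gene directly downstream, had 26.3, 30.1 and 32.0 CPM with SB and 26.4, 31.3 and 33.6 CPM with vehicle (-0.072 ± 0.060). Mapk12, Mapk13 and Mapkapk3 were not analysed here.

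Of 35 genes of the p38 cascade, 24 were measured: 15 were higher and 9 lower, where 51% of all genes were higher and 49% lower. None was called or had an unadjusted p under 0.05, and the list median was 0.011 beside 0.0016 for all genes. The member farthest from 0 was Gadd45b, an activator of the upstream kinase MTK1, at -0.23 ± 0.11, with 7.79, 12.3 and 13.1 CPM in SB males and 10.3, 13.4 and 16.8 CPM in vehicle males. Tab2, an adaptor of the kinase TAK1, stood at -0.082 ± 0.049. Of 41 substrates and MAP kinase phosphatases, 32 were measured, 14 higher and 18 lower (median -0.0074). Dusp6, the phosphatase gene that acts on ERK, was the single member with an unadjusted p under 0.05 (3.12%, beside 3.94% of all genes). It had 35.5, 66.0 and 90.7 CPM with SB and 60.7, 71.6 and 99.6 CPM with vehicle (-0.25 ± 0.12).

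Myelin and mature oligodendrocyte genes were lower with SB in 38 of 39 measured members (of 45 listed), beside 49% of all genes. Their median log2 fold change was -0.32, beside 0.0016 for all genes. None passed over all genes, and 6 (15.4%, all lower) had an unadjusted p under 0.05, beside 3.94% of all genes. Oligodendrocytes wrap axons in myelin, and these transcripts are abundant in them. The exception was Enpp2, at 0.45 ± 0.43 with SB replicate 6 and -0.12 without it. Their summed level was 5430, 11600 and 15900 CPM in SB males, against 10300, 12600 and 19000 CPM in vehicle males and 6270, 11300 and 15900 CPM in sham vehicle males. SB replicate 8 (cohort M3) was the lowest library, SB replicate 2 (cohort M2) the next at 8280 CPM, and vehicle replicate 2 (cohort M4) the highest. In bulk tissue, fewer cells of a type and less RNA per cell cannot be told apart.

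Mobp, a structural protein of compact myelin named after its values were seen, had 339, 1025.7 and 1522 CPM in SB males and 908, 1204 and 2065 CPM in vehicle males (-0.38 ± 0.24). Mog, a protein of the outer myelin surface chosen in the same way, had 26.8, 65.9 and 72.5 CPM with SB and 53.4, 74.3 and 111 CPM with vehicle (-0.39 ± 0.20). Among the members of smallest p, Qdpr, which regenerates tetrahydrobiopterin, had 125, 197 and 279 CPM with SB and 196, 232 and 316 CPM with vehicle (-0.28 ± 0.12, unadjusted p = 0.0309 by edgeR). Dbndd2 stood at -0.20 ± 0.091, the cytoskeletal gene Septin4 at -0.24 ± 0.11 and Evi2a at -0.38 ± 0.17.

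The myelin difference was uneven between cohorts. The median over members was 0.12 in M1, where 30 of 39 were higher, -0.23 in M2, -0.85 in M3, where 0 were higher, and -0.49 in M4. Without SB replicate 8 the list median was -0.20, without cohort M3 -0.17 and without cohort M1 -0.49. Without SB replicates 6 and 8 it was -0.22, with 37 of 39 members lower. Precursor and lineage genes had a median of -0.16, with 15 of 17 measured members lower (26 listed). Sox8, a transcription factor gene of the lineage, had 30.6, 39.7 and 63.3 CPM with SB, against 44.8, 54.0 and 69.1 CPM with vehicle (-0.32 ± 0.13). Sox10, the factor that drives myelin genes, stood at -0.36 ± 0.18 and Lhfpl3 at -0.17 ± 0.090. This median depended on single libraries: it was -0.075 without vehicle replicate 2, -0.095 without SB replicate 2 and also without SB replicate 8, -0.10 without vehicle replicate 7 and -0.063 without SB replicates 6 and 8. Without cohort M3 it was -0.090 and without cohort M4 -0.067.

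**Figure D2:**
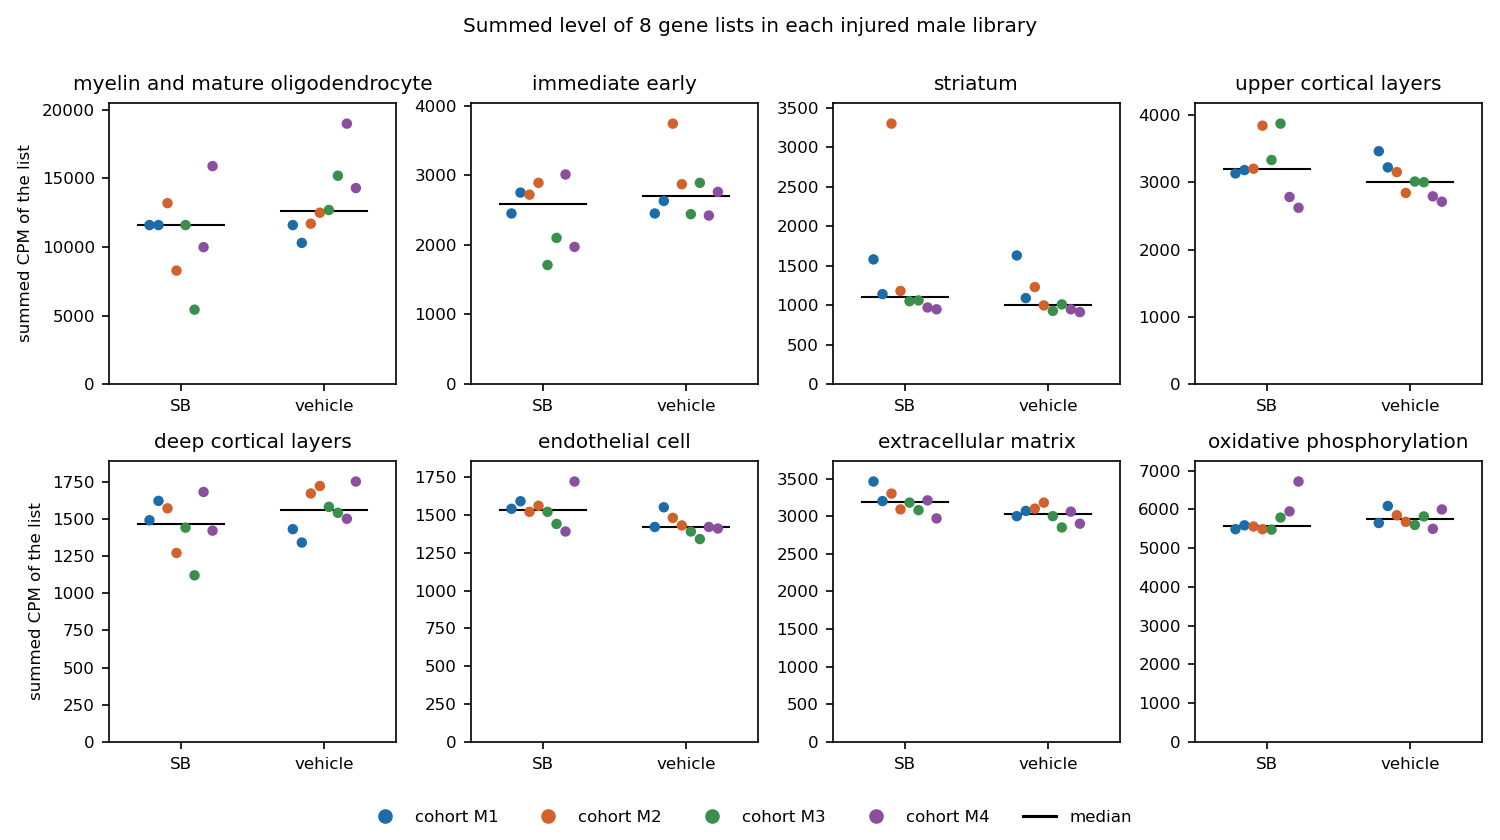
Summed TMM-scaled CPM of 8 gene lists in each injured male library, SB left and vehicle right; points are libraries coloured by cohort and bars are medians. The groups overlap in every list; myelin spans 5430 to 15900 CPM with SB and 10300 to 19000 CPM with vehicle, and 1 SB library of cohort M2 holds 3300 CPM of striatal genes.

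The immediate early list holds genes that neuronal activity and growth factors induce. It is broad and takes in Pcsk1, Scg2 and Inhba beside transcription factor genes such as Egr1. Its members were lower with SB in 24 of 29 measured (45 listed), beside 49% of all genes. Their median log2 fold change was -0.20. None was called, and 7 (24.1%, all lower) had an unadjusted p under 0.05, beside 3.94% of all genes. Some of their promoters carry binding sites of factors that receive kinase signals. These are the cyclic AMP response element (CRE), bound by CREB, and the CArG box, bound by serum response factor. The promoters of Dusp5 and Pcsk1 are shown because both are among the members of smallest p, and that of Egr4 (chosen after its values were seen) because it has the same CRE core and a larger p. They run from 250 bases before to 50 bases after the start site, from RefSeq on GRCm38.p6, and lie at chr19:53528895-53529194 (plus strand), chr13:75089607-75089906 (plus strand) and chr6:85513540-85513839 (minus strand). Capitals mark the CRE core (TGACGT, or ACGTCA on the other strand, overlaps counted) and CArG boxes.
Dusp5: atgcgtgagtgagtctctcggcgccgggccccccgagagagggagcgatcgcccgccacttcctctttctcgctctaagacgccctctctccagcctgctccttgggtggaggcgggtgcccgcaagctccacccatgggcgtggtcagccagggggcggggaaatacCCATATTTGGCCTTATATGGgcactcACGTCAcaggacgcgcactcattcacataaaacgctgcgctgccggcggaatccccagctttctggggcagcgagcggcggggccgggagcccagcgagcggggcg
Pcsk1: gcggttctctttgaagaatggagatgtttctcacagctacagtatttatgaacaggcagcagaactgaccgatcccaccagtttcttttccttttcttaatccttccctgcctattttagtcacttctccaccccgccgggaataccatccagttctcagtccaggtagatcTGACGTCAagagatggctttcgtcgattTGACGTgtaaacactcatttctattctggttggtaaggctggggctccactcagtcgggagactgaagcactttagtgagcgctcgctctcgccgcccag
Egr4: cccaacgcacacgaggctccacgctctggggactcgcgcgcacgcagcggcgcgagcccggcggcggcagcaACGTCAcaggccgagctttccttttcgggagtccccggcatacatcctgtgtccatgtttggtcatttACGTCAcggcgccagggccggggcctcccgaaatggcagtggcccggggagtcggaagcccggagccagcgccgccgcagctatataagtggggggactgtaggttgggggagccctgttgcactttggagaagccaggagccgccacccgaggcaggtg
Dusp5 holds 1 CRE core and 2 adjoining CArG boxes, Pcsk1 holds 3 core matches, of which 2 overlap as a palindrome, and Egr4 holds 2. The core was found in 7.51% of all 32851 promoters of this length and in 12.7% of those of the 7764 measured genes with one, and the CArG box in 1.63% and 1.26%. Of the 22 measured immediate early genes with a promoter in the table, 8 held the core and 1, Dusp5, a CArG box. These are letter matches only, sites outside this window were not searched, and binding was not measured.

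Dusp5, a nuclear phosphatase gene for ERK, had 7.91, 12.5 and 18.2 CPM in SB males, against 11.0, 15.9 and 21.4 CPM in vehicle males (-0.41 ± 0.16, SE). Pcsk1 had 53.0, 61.0 and 76.4 CPM with SB and 59.8, 72.1 and 79.2 CPM with vehicle (-0.20 ± 0.068). Egr4, a zinc finger factor gene, had 10.5, 19.0 and 24.3 CPM with SB and 10.0, 17.2 and 32.5 CPM with vehicle (-0.13 ± 0.12). The Dusp5 and Pcsk1 groups were shifted but overlapped, and the Egr4 medians stood in the opposite order to its fold change, which was 0.013 without cohort M2 and -0.24 by limma voom. The difference between these genes was not tested.

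Egr1, another zinc finger factor gene, had 211, 322 and 444 CPM in SB males and 376, 397 and 536 CPM in vehicle males (-0.36 ± 0.14, unadjusted p = 0.0202 by edgeR). Tiparp had 12.0, 14.7 and 20.6 CPM with SB and 12.6, 20.1 and 23.7 CPM with vehicle. Arc, a synaptic gene named after its values were seen, had the lowest fold change of the list, -0.58 ± 0.45. It had 39.8, 226 and 288 CPM with SB and 99.5, 268 and 500.1 CPM with vehicle. The Arc cohort differences ran from 0.82 in M1 to -0.55 in M2, -2.02 in M3 and -0.94 in M4. SB replicates 6 and 7 held 49.1 and 39.8 CPM, below every vehicle library, and the other 6 SB libraries lay inside the vehicle range.

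The list as a whole had medians of 0.069 in M1, -0.23 in M2, -0.50 in M3 and -0.16 in M4. Its summed level was 1710, 2580 and 3010 CPM in SB males, 2420, 2690 and 3740 CPM in vehicle males, and 2130, 3510 and 4340 CPM in sham vehicle males. The list median was -0.12 without SB replicate 7, -0.13 without SB replicate 6, -0.11 without vehicle replicate 1 and -0.072 without cohort M3. Leaving out SB replicates 6 and 8 gave -0.11, with 23 of 29 lower.

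Vessel and matrix genes leaned the other way. Endothelial genes, which mark the cells lining vessels, were higher with SB in 24 of 27 measured members (35 listed), beside 51% of all genes. The median was 0.11, and 4 (14.8%) had an unadjusted p under 0.05, beside 3.94% of all genes. The cohort medians were 0.12 in M1, 0.13 in M2, 0.13 in M3 and 0.057 in M4, so this list had the same sign in all 4. Vwf, the von Willebrand factor gene, had 15.7, 24.0 and 27.0 CPM in SB males, against 13.5, 18.7 and 24.6 CPM in vehicle males (0.26 ± 0.098). The TGF-beta co-receptor gene Eng had 16.9, 20.4 and 27.0 CPM with SB and 15.1, 17.3 and 24.0 CPM with vehicle (0.19 ± 0.079), and all 8 SB libraries lay above the vehicle mean of their cohort. The drug efflux pump gene Abcb1a stood at 0.14 ± 0.051. Without SB replicates 6 and 8 the list median was 0.087, with 24 of 27 higher.

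Extracellular matrix genes were higher in 36 of 41 measured members (68 listed), beside 51% of all genes, with a median of 0.095. Of them 8 (19.5%, all higher) had an unadjusted p under 0.05, beside 3.94% of all genes. The cohort medians were 0.21, 0.12, 0.057 and 0.082 in M1 to M4. Their summed level was 2970, 3190 and 3460 CPM in SB males and 2850, 3030 and 3180 CPM in vehicle males. Median values were 0.15 without SB replicates 6 and 8, and 0.058 without cohort M1. Fn1 stands in both this and the endothelial list.

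Genes of meningeal and perivascular fibroblasts, cells of the brain's coverings, were higher in 8 of 9 measured members (24 listed), beside 51% of all genes. Their median was 0.27. Their defining markers Col1a1 and Dcn are among the 15 not analysed here. The summed level was 670, 740 and 899 CPM in SB males, 497, 614 and 783 CPM in vehicle males and 504, 796 and 918 CPM in sham vehicle males. Slc6a20a, an amino acid transporter gene, had 14.7, 17.2 and 22.2 CPM with SB and 9.90, 13.6 and 17.8 CPM with vehicle (0.35 ± 0.13). Ptgds, the prostaglandin D synthase gene, had 397, 530 and 677 CPM with SB and 335, 424 and 551 CPM with vehicle (0.27 ± 0.11), Islr stood at 0.33 ± 0.14 and the collagen gene Col1a2 at 0.34 ± 0.16. Igfbp2, which had the highest fold change of the list and was named after its values were seen, had 133 CPM in SB replicate 6, 20.7 to 37.1 CPM in the other SB libraries and 14.2 to 28.5 CPM with vehicle. The cohort medians were -0.011 in M1, where 4 of 9 were higher, 0.21 in M2, 0.4 in M3 and 0.16 in M4. The list median was 0.24 without SB replicates 6 and 8 and 0.13 without cohort M3. Both this list and the matrix genes were higher with SB, and Col1a2 stands in both; the part of such cells in the matrix values was not tested.

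Mural cell genes, of pericytes and smooth muscle, were higher in 5 of 7 measured members (20 listed; median 0.098). The myosin light chain gene Myl9 had 8.89, 10.8 and 12.9 CPM with SB and 6.35, 9.15 and 12.6 CPM with vehicle (0.26 ± 0.11). Mcam, an adhesion molecule gene, had 12.8, 26.7 and 31.6 CPM with SB and 21.1, 31.5 and 44.5 CPM with vehicle (-0.35 ± 0.18). With 7 members the median depended on single libraries, at 0.047 without SB replicate 3 and 0.044 without vehicle replicate 6.

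**Figure D3:**
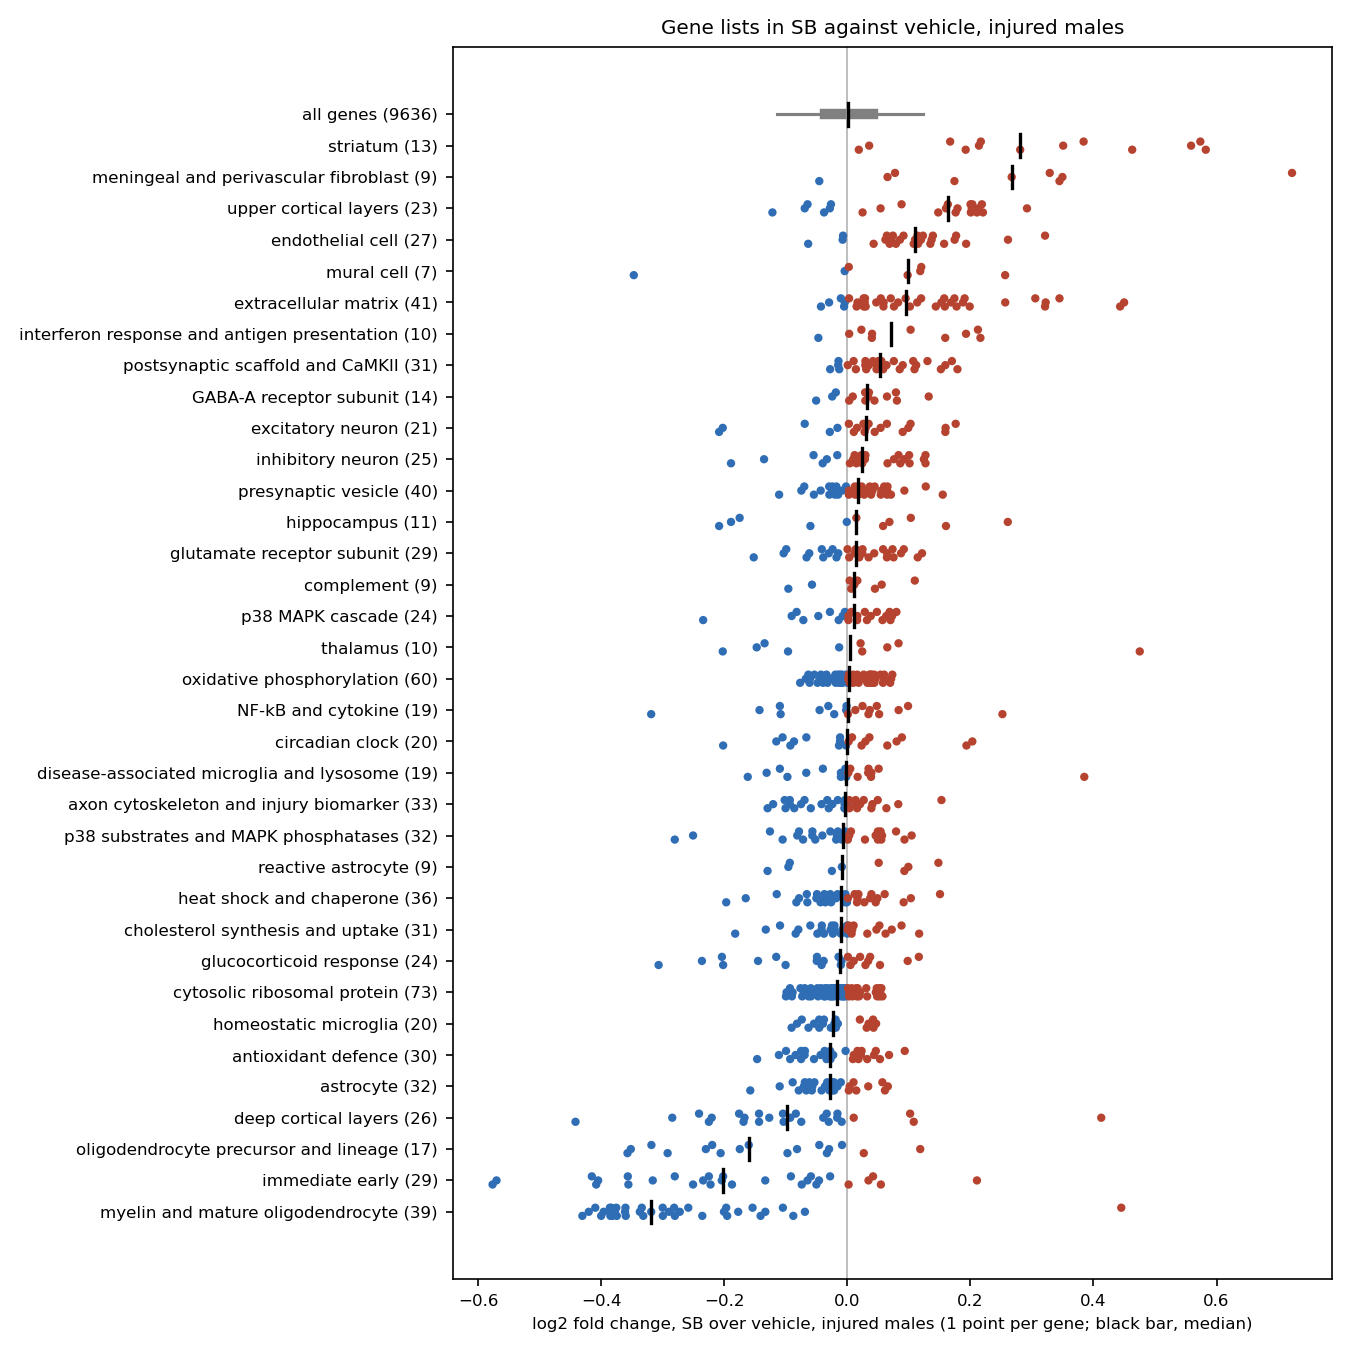
Log2 fold change of SB over vehicle in injured males (x axis) for the members of 35 gene lists (rows, number measured in brackets); points are genes, red above 0 and blue below, and black bars are medians. The top row gives all 9636 genes as 5th to 95th percentile (thin line) and quartiles (thick line); myelin genes lie lowest with a median of -0.32 and striatal genes highest with 0.28.

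Layer genes differed in sign between the upper and the deep cortex. Upper layer genes were higher with SB in 17 of 23 measured members, with a median of 0.16, and deep layer genes lower in 22 of 26 (32 listed), with a median of -0.098. Cux2, a homeobox gene of upper layer neurons, had 138, 178 and 228 CPM in SB males, against 123, 137 and 201 CPM in vehicle males (0.29 ± 0.099). The vehicle library at 201 CPM was replicate 8 of cohort M1, and the other 7 lay at 158 CPM or less. Stard8 stood at 0.22 ± 0.086 and the netrin receptor gene Unc5d at 0.20 ± 0.098. Pou3f3, a transcription factor gene, had 104, 123 and 136 CPM with SB and 114, 135 and 143 CPM with vehicle (-0.12 ± 0.056).

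The upper layer median was -0.087 in M1, 0.25 in M2, 0.32 in M3 and -0.018 in M4, and the list median was 0.10 without SB replicate 2, 0.070 without cohort M3 and 0.29 without cohort M1. Among deep layer genes Ldb2 had 47.2, 57.1 and 66.1 CPM with SB and 50.1, 65.9 and 75.1 CPM with vehicle (-0.17 ± 0.080). Cplx3, a complexin gene of subplate neurons, stood at -0.17 ± 0.092. The deep layer cohort medians were 0.071, -0.10, -0.26 and 0.0018 in M1 to M4. This list median was -0.028 without cohort M3, with 17 of 26 lower, -0.033 without SB replicate 8, -0.053 without SB replicate 2, -0.060 without vehicle replicate 4, -0.063 without vehicle replicate 3 and -0.036 without SB replicates 6 and 8.

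Striatal genes were higher in 13 of 13 measured members (23 listed), with a median of 0.28, and 1 library set that value. Ppp1r1b, which encodes the dopamine-regulated phosphatase inhibitor DARPP-32, had 63.1, 98.5 and 382 CPM in SB males, against 56.4, 76.9 and 157 CPM in vehicle males (0.56 ± 0.30). The highest SB library was replicate 1 (cohort M2), with the next at 159 CPM, and the highest vehicle library was replicate 6 (cohort M1). The small GTPase gene Rasd2 reached 208 CPM in the same SB library. Over the whole list the summed level was 948, 1100 and 3300 CPM with SB and 912, 1000 and 1630 CPM with vehicle. Without SB replicate 1 the list median was 0.026, with 8 of 13 higher. Foxp1, a transcription factor gene also in this list, had 107, 139 and 178 CPM with SB and 107, 128 and 167 CPM with vehicle. Genes of other neighbouring regions were near 0: hippocampal genes had 6 of 11 higher (19 listed; median 0.015) and thalamic genes 5 of 10 (16 listed; median 0.0040), Zic1 among them.

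**Figure D4:**
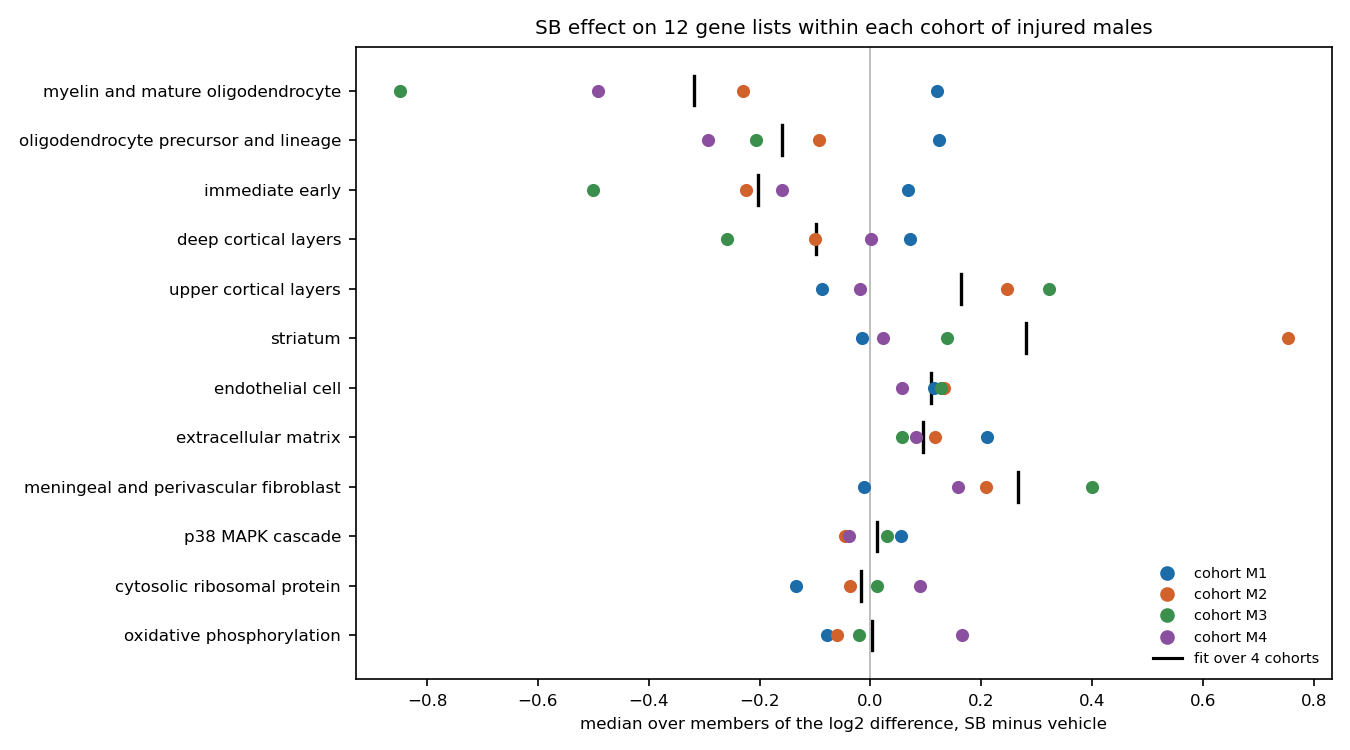
Median over members of the log2 difference, SB minus vehicle (x axis), for 12 gene lists (rows) within each cohort of 2 SB and 2 vehicle males; points are cohorts and black bars the fit over all 4. Myelin runs from 0.12 in M1 to -0.85 in M3, striatum reaches 0.75 in M2, and endothelial and matrix genes are above 0 in each cohort.

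Glial and immune genes differed by small amounts. Microglia are the resident macrophages of the brain, and their homeostatic genes had a median of -0.024, with 14 of 20 measured members lower (30 listed) and none at an unadjusted p under 0.05. The members farthest from 0 in p were Bin1 (-0.091 ± 0.056) and the protease inhibitor gene Cst3 (-0.046 ± 0.047). Disease-associated microglia and lysosome genes had 9 higher and 10 lower (31 listed; median -0.0019). The lysosomal membrane gene Lamp1 had 258, 284 and 300.1 CPM with SB and 282, 299.7 and 326 CPM with vehicle (-0.097 ± 0.042), and the ferritin gene Fth1 stood at -0.13 ± 0.071 and at -0.082 without SB replicate 8. Astrocyte genes had 24 of 32 lower (34 listed; median -0.029). Reactive astrocyte genes had 4 of 9 higher (29 listed; median -0.0090), with the intermediate filament gene Vim at 29.7, 35.4 and 38.2 CPM in SB males and 27.8, 32.2 and 37.7 CPM in vehicle males (0.093 ± 0.053).

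Inflammatory genes were measured only in part. Of 51 NF-kB and cytokine genes 19 were measured, 10 higher and 9 lower (median 8.7e-04), and Il1b, Tnf and Il6 were not analysed here. The alarmin gene Il33, which mouse oligodendrocytes and astrocytes express and which stands also in the myelin list, had 46.6, 73.8 and 88.0 CPM with SB and 61.5, 82.1 and 129 CPM with vehicle (-0.32 ± 0.15). Rela, the NF-kB subunit gene, stood at -0.14 ± 0.082. Interferon response and antigen presentation genes were higher in 9 of 10 measured members (42 listed; median 0.071), led in p by Stat2 (0.19 ± 0.085) and the peptide transporter gene Tap2 (0.22 ± 0.11). That median was 0.075 in M1, -0.010 in M2, -0.026 in M3 and 0.30 in M4, and 0.012 without cohort M4, with 7 of 10 higher. It was 0.040 without SB replicate 5 or 6, 0.12 without vehicle replicate 7, and 0.11 without SB replicate 7 or vehicle replicate 1. Complement genes had 7 of 9 higher (23 listed; median 0.011).

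Neuronal lists had small medians, with more members higher than the 51% of all genes. Excitatory neuron genes had 16 of 21 higher (median 0.030) and inhibitory neuron genes 19 of 25 higher (median 0.024). Ptk2b, a calcium-activated kinase gene of excitatory neurons, had 420, 552 and 652 CPM in SB males, against 407, 466 and 548 CPM in vehicle males (0.18 ± 0.058). Neurod6, a transcription factor gene of excitatory neurons, had 56.8, 73.0 and 80.7 CPM with SB and 71.9, 83.4 and 96.7 CPM with vehicle (-0.21 ± 0.073). Postsynaptic scaffold genes were higher in 27 of 31 (median 0.054), with Shank3 at 0.18 ± 0.075 and Dlgap3 at 0.17 ± 0.067. Without SB replicate 6 this median was 0.083, and without cohort M3 0.028.

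Other synaptic lists lay closer to 0. Glutamate receptor subunits had 18 of 29 higher (median 0.014), with the NMDA receptor gene Grin2a at 0.12 ± 0.051, and GABA-A receptor subunits 11 of 14 higher (median 0.032), with Gabrd at 0.13 ± 0.064. Presynaptic genes had 25 of 40 higher (median 0.017). Syt11, a synaptotagmin gene, had 946, 1025.1 and 1157 CPM with SB and 1014.5, 1111 and 1178 CPM with vehicle (-0.11 ± 0.038), and no SB library lay above the vehicle mean of its cohort. The release factor gene Unc13a stood at 0.13 ± 0.052, with all 8 SB libraries above the vehicle mean of their cohort. Axonal genes had 20 of 33 lower (median -0.0046), with the tau gene Mapt at 705, 753 and 794 CPM in SB males and 740.3, 787 and 864 CPM in vehicle males (-0.086 ± 0.036).

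Housekeeping and hormonal lists were also near 0 in males. Oxidative phosphorylation genes had 32 of 60 higher (median 0.0030) and cytosolic ribosomal protein genes 50 of 73 lower (median -0.017). In both lists the cohorts differed in sign. Oxidative phosphorylation medians were -0.0788, -0.0598, -0.0215 and 0.166 in M1 to M4, with 9 of 60 higher in M1 and 54 in M4. Ribosomal medians were -0.134, -0.037, 0.0118 and 0.0895, with 3 of 73 higher in M1 and 60 in M4. Heat shock genes had 22 of 36 lower (median -0.0099), cholesterol synthesis genes 19 of 31 lower (median -0.011) and antioxidant genes 18 of 30 lower (median -0.028). Of the antioxidant genes 8 were lower in all 4 cohorts, beside 4.1% of all genes, among them Gstp1 (-0.11 ± 0.057) and Gss (-0.15 ± 0.076), both of glutathione metabolism. Glucocorticoid response genes had 14 of 24 lower (median -0.013). Clock genes were 10 higher and 10 lower, with the output gene Dbp at 74.0, 80.1 and 112 CPM with SB and 60.9, 71.6 and 111 CPM with vehicle (0.19 ± 0.065). Myo16, an unconventional myosin gene of neurons, had 25.5, 49.1 and 57.0 CPM in SB males and 28.7, 41.1 and 47.9 CPM in vehicle males (0.19 ± 0.070), and its mean was higher in all 4 cohorts.

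The same drug was compared with vehicle in injured females, whose animals are all different. Across the 9636 genes, which are not independent replicates, the male and female log2 fold changes had a Pearson r of 0.406 and a Spearman rho of 0.37, and 63% had the same sign. This is a description, as genes of one cell type vary together. A test of the male minus female effect, in a fit over all 58 libraries, called 0 genes (0%), with 88 at an unadjusted p under 0.05 (0.913%) and a smallest adjusted p of 1.00 by edgeR. For females, the SB contrast of that same fit called 0 genes by edgeR (0%), with 695 at an unadjusted p under 0.05. Of all genes, 52.7% were higher in females and 47.3% lower. Males in that fit had 79 higher and 102 lower at an unadjusted p under 0.05. An even spread of p would give 481.8 genes, more than the 88 for the sex difference and fewer than the 695 in females.

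Myelin genes were lower with SB in both sexes, with a median of -0.25 in females, where 39 of 39 were lower. The endothelial and matrix medians in females were 0.077 and 0.11. Immediate early genes stood at -0.20 in males and 0.065 in females, where 24 of 29 were higher. The male minus female median of this list was -0.25, and 3 of its genes had an unadjusted p under 0.05 for that difference, Egr1 among them (-0.48 ± 0.20, unadjusted p = 0.0208, adjusted p = 1.00 by edgeR). Egr1 had 211, 322 and 444 CPM in SB males, as above, and 236, 535 and 792 CPM in SB females, against 287, 510.4 and 686 CPM in vehicle females. Ribosomal and oxidative phosphorylation genes stood at -0.017 and 0.0030 in males, against -0.13 (73 of 73 lower) and -0.10 (60 of 60 lower) in females. The male values average over cohorts of opposite sign, from -0.134 in M1 to 0.0895 in M4 for ribosomal genes and from -0.0788 to 0.166 for oxidative phosphorylation genes. The difference between the sexes was not called for any member of these lists.

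The genes with the smallest p for the sex difference had opposite signs in the sexes, which choosing genes by that difference favours. Nlrx1, a mitochondrial innate immune regulator gene, had a log2 fold change of 0.27 ± 0.096 in males and -0.14 ± 0.079 in females, a difference of 0.41 ± 0.12 (unadjusted p = 0.00167 by edgeR). Its level was 7.39, 9.57 and 11.1 CPM in SB males and 6.08, 7.97 and 9.37 CPM in vehicle males. The lysosomal membrane gene Tmem192 stood at 0.12 in males and -0.20 in females, and the SMC5/6 complex gene Nsmce4a at 0.15 and -0.13. Etv3, an ETS repressor gene, stood at -0.18 in males and 0.090 in females, Shisal1 at -0.15 and 0.17, and Klhl5 at -0.17 and 0.054. None of these 6 differences passed after adjustment.

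**Figure D5:**
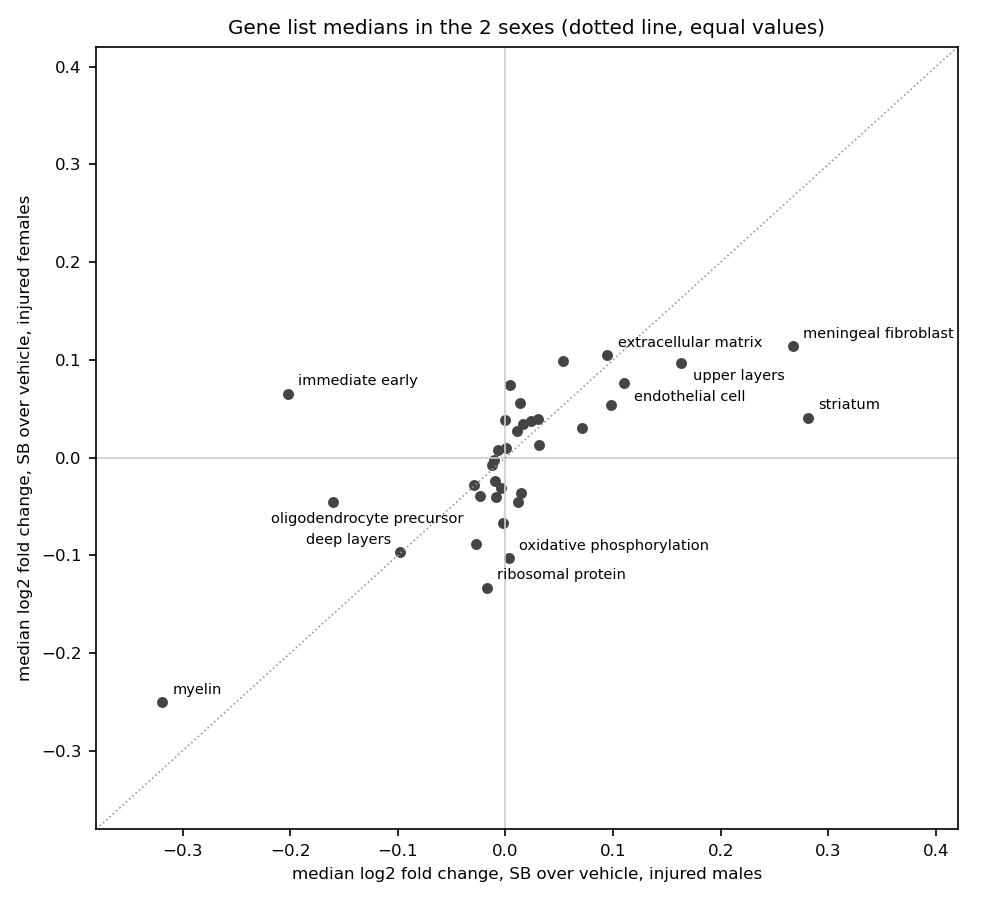
Median log2 fold change, SB over vehicle, of each gene list in injured males (x axis) and injured females (y axis); each point is a list and the dotted line marks equal values. Myelin lies at -0.32 in males and -0.25 in females, immediate early genes at -0.20 and 0.065, and striatal genes at 0.28 and 0.041.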

How the data were processed

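Poly(A) RNA of somatosensory cortex was sequenced from directional libraries, per the labels. The authors deposited read counts, not normalized, for 9636 genes in 58 libraries. The submitters' processing notes list STAR, featureCounts, DESeq2 and the builds GRCm39 and mm39; versions and strand setting are, in the sources used, not given, so overlapping or near-identical genes may share counts. The smallest count is 101, so low genes had been left out by the authors under a rule not given. Labels were taken to mean separate animals; otherwise p-values would measure a partly technical spread. Replicates differed by more than counting error in every pair (chi-square over degrees of freedom at least 17).

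In R 4.3.3, edgeR 4.0.16 (TMM, robust quasi-likelihood test, two-sided) was fitted to the 16 libraries with cohort as a block (5 coefficients, 11 residual degrees of freedom). P-values were adjusted by Benjamini-Hochberg at 0.05 over 9636 genes; filterByExpr removed 0. The biological coefficient of variation was 0.102, so spread between animals, not depth, limits precision. The sex difference and the female fold changes came from a fit of all 58 libraries (14 coefficients, 44 residual degrees of freedom). The CPM levels were scaled by TMM over 58 libraries, and cohort differences are of log2 CPM with a prior count of 2. The main fit was also run on simulated counts without cohort effects and with each gene drawn independently. Such a run does not show how well small differences are found in these libraries. DESeq2 1.42.0, limma 3.58.1, other scalings, filters, blocks and left-out libraries or cohorts were alternatives.

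Members and lists were chosen with earlier results of these data known, and lists got no test. Named genes were the 12 of smallest p per direction, up to 4 per list (2 where the list median is within 0.1 of 0, a limit set after values were seen), p38 kinases and effectors, Myo16, and 3 per direction for the sex difference; genes outside this rule are marked in the text, and some named by it are not reported here. Deviations of SB and vehicle libraries from their group means had a mean correlation of 0.166 within a cohort (-0.28 to 0.449). Between cohorts it was -0.055 (-0.468 to 0.485), so the ranges overlapped. Centring on group means ties these 2 means together, so the second is no independent comparison.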

Additional observations from a re-analysis of the deposited data

Results flagged for a closer look

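Of 298 sets of 8 libraries checked (each gene and gene list reported on in each group), 25 held a library whose gap to its nearest neighbour exceeded Dixon's 95% critical share of the range. For independent, normally distributed sets, chance would give about 1 in 20. These sets share libraries and members, and some genes were named after their values were seen, so the 25 cannot be judged by that rate. In SB males, replicate 1 (cohort M2) had the highest Ppp1r1b at 382 CPM, Rasd2 at 208 CPM and Ppp1r3c at 48.2 CPM, and the highest striatal mean log2 CPM, 7.77. SB replicate 6 (cohort M4) had the highest Enpp2 at 2360 CPM, Igfbp2 at 133 CPM and Rps15a at 134 CPM. In mean log2 CPM it was also highest in disease-associated microglia and lysosome genes at 7.31, oxidative phosphorylation genes at 6.46 and antioxidant genes at 6.14. It was lowest in glutamate receptor subunits at 6.28 and postsynaptic scaffold genes at 8.19. SB replicate 3 (cohort M1) was highest in Kcnh4 at 43.2 CPM and in matrix genes at a mean log2 CPM of 5.75. SB replicate 5 (cohort M4) was highest in glucocorticoid response genes at 5.66, and SB replicate 7 (cohort M3) lowest in Tmem192 at 12.9 CPM.

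In vehicle males, replicate 6 (cohort M1) had the highest Foxp1 at 167 CPM and the highest striatal mean log2 CPM, 6.81. Vehicle replicate 8 (cohort M1) had the highest Cux2 at 201 CPM and Dbp at 111 CPM. Vehicle replicate 7 (cohort M3) had the lowest Mapkapk2 at 26.4 CPM. In mean log2 CPM, vehicle replicate 2 (cohort M4) was highest in precursor and lineage genes at 6.07 and NF-kB and cytokine genes at 5.42. Vehicle replicate 1 (cohort M2) was highest in immediate early genes at 6.32 and in p38 substrates and phosphatases at 6.09.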

How the results depend on the processing

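Leaving out 1 library at a time gave 0 to 1 genes called higher with SB (1, Kcnh4, without SB replicate 4) and 0 called lower; every other alternative run called 0 in both directions. At an unadjusted p under 0.05 the counts were 104 higher and 59 lower without cohort M3, 104 and 140 without the cohort block, 97 and 170 with all 23 male libraries, and 79 and 102 with all 58. They were 351 and 321 without cohort M1, 259 and 217 without cohort M2, 296 and 126 without cohort M4, 374 and 170 without SB replicates 6 and 8, and 131 to 365 higher and 121 to 258 lower with 1 library left out. With the replicate number as a block in place of the cohort, 0 genes were called, with 108 higher and 161 lower at an unadjusted p under 0.05. The numbers do not pair the libraries: correlations of same-numbered libraries ran from -0.378 to 0.446, and only replicates 1 and 7, which share a cohort, matched their own number best. List medians moved beyond the spread between libraries without cohort M1 (mural 0.0149, upper layers 0.29, hippocampus 0.101), without cohort M2 (interferon 0.16, GABA-A receptors -0.0312), without cohort M3 (upper layers 0.0703) and with genes of a mean count of at least 1000 (fibroblasts 0.0788, with fewer members tested). This limit is wide for lists that vary much between libraries, so their shifts are not counted here. Striatal genes went from 0.281 to 0.0262 without SB replicate 1 (spread 0.468). Without cohort M3, myelin genes went from -0.319 to -0.172 (spread 0.359) and immediate early genes from -0.202 to -0.0715 (spread 0.247). Signs turned for Mapk11 without cohort M4 (-0.0136), for Egr4 without cohort M2 (0.0128), and for Enpp2 without cohort M4 (-0.0131) or without SB replicates 6 and 8 (-0.0754), an alternative chosen after seeing the data. Leaving out 1 library each gave Enpp2 from -0.118 to 0.545. Beyond the construction of each alternative, the cause was not tested. The male minus female count was 0 by DESeq2 (90 at an unadjusted p under 0.05), by voom (443) and with the 39 injured libraries (142).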
